A study of Rattus norvegicus with 18 samples.

Results

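The synaptic vesicle release machinery was followed here as 44 genes, chosen by name from the 38445 genes counted in each rat. They encode synapsins, calcium sensors, the proteins that fuse vesicle and plasma membrane, and active zone scaffolds. The others encode RAB3 proteins with their partner rabphilin, vesicle membrane proteins and proteins that retrieve vesicle membrane after release. RNA came from the dorsal hippocampus of 18 male Sprague-Dawley rats, bought at 75 to 85 days of age, all wild type and all fed a Lieber-DeCarli liquid diet. The 6 control rats had the diet without ethanol. The 6 ethanol rats were kept on the diet with 9% (v/v) ethanol for 16 days and were taken with no withdrawal. The 6 withdrawal rats had 15 days of the same ethanol diet and were then moved to control diet for 24 h. Before these days both ethanol-fed groups had been introduced to ethanol gradually, at lower doses, and the rats were pair fed. No females were studied, and a whole piece of dissected tissue was sequenced from each rat. In such bulk tissue, fewer cells of a type and less RNA per cell cannot be told apart.

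At a resting synapse, vesicles are held in reserve by synapsins and brought to the active zone, where MUNC13 and RIM proteins dock them and make them ready. The SNARE proteins SNAP25, syntaxin and synaptobrevin then pull the membranes together, complexins hold the complex in check, and synaptotagmins start fusion when calcium enters. Afterwards the SNARE complex is taken apart by NSF and its adaptors, and the vesicle membrane is recovered with clathrin, dynamin and synaptojanin. In the hippocampus this machinery sets how reliably excitatory and inhibitory terminals release transmitter.

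Levels are given in CPM, the counts of a gene scaled to a fixed library size, after TMM normalization, which scales each library by its effective size. All 44 members passed the expression filter, more than 0.5 CPM in at least 1 rat, and all 44 were above it in each of the 18 rats, with between 59 and 81049 counts per gene and rat. The members together took between 1.504% and 1.73% of the counts of a rat. Total counts on genes were between 30873228 and 42679748 per rat. The 8 general neuron markers summed to between 3575 and 4415 CPM. Of 10 markers of hippocampal principal neurons, Fibcd1 and Iyd were under 0.5 CPM in every rat. So was the interneuron marker Npy, with at most 0.027 CPM in control rats and 0 in all others. The neuron marker Eno2 (0.27 to 0.91 CPM) and the hippocampal marker Spink8 (0.16 to 0.62 CPM) lay near the filter but stay in the marker counts below. Whether such low values come from the counting or from the tissue was not tested. The libraries carried 3 sets of index sequences. Every control rat had the first set, the ethanol rats and withdrawal rats 1 and 2 had the second, and withdrawal rats 3 to 6 had the third, so that the control group and its index set cannot be told apart.

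Several libraries stood apart in their markers. In withdrawal rat 5 the 10 hippocampal principal neuron markers summed to 220 CPM, against 450 to 748 CPM in the other rats, and 4 of the 10 (Prox1, Wfs1, Neurod2 and Bok) were lower there than in any other rat. Its 8 interneuron markers summed to 836 CPM, against 390 to 698 CPM elsewhere, and 5 of the 8 were highest in this rat. Ethanol rat 1 had the highest level of each of the 10 thalamus markers (2052 CPM in sum, against 335 to 1211 CPM). The 8 choroid plexus markers summed to 33.8 CPM in withdrawal rat 5 and 30.2 CPM in withdrawal rat 4, but to 5561 CPM in ethanol rat 1 and 5590 CPM in withdrawal rat 6. Ethanol rats 6 and 4 were also high, at 5197 and 3777 CPM, and the other ethanol rats ran from 1531 to 2009 CPM. Control rats ran from 1136 to 2366 CPM. The called members, the counts of active zone genes and the calls in other lists are given with and without ethanol rat 1 and withdrawal rat 5, a choice made after the values were seen.

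To compare levels between genes, CPM were divided by the exonic length in kilobases (kb). In control rats the members spanned from 882 ± 55.7 CPM per kb (SD, n = 6) for Snap25, the plasma membrane SNARE, to 1.65 ± 0.69 CPM per kb for Cplx3, a complexin best known from retina. Syp, the vesicle membrane protein synaptophysin, came second at 512 ± 28.9 CPM per kb. Dnm1 (348 ± 20.6 CPM per kb), the dynamin that cuts vesicles from the membrane, Rab3a (331 ± 12.5 CPM per kb), a small GTPase on vesicles, and Syt1 (316 ± 16.0 CPM per kb), the calcium sensor of fast release, followed. The ranges of Dnm1 and Rab3a overlapped over the 6 control rats, as did those of Rab3a and Syt1, and so did 31 of the 43 neighbouring pairs in this order.

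Within each role the isoforms differed in level. Among synapsins, Syn1 stood at 148 ± 9.97 CPM per kb and Syn3 at 3.25 ± 0.48 CPM per kb. Among calcium sensors, Syt1 was highest and Syt2, a fast sensor of many inhibitory and hindbrain neurons, lowest at 11.7 ± 4.38 CPM per kb. The active zone genes were lower than most other members, with Unc13a, the main vesicle priming factor of excitatory terminals, highest at 47.9 ± 3.18 CPM per kb and Unc13c, its relative of cerebellar granule cells, lowest at 2.598 ± 0.77 CPM per kb. Rab3b stood at 11.48 ± 0.99 CPM per kb. The vesicle transporter relative Sv2c had 4.01 ± 1.06 CPM per kb, and Amph, the dynamin adaptor amphiphysin, 13.5 ± 0.54 CPM per kb, the lowest of the endocytosis genes.

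**Figure D1:**
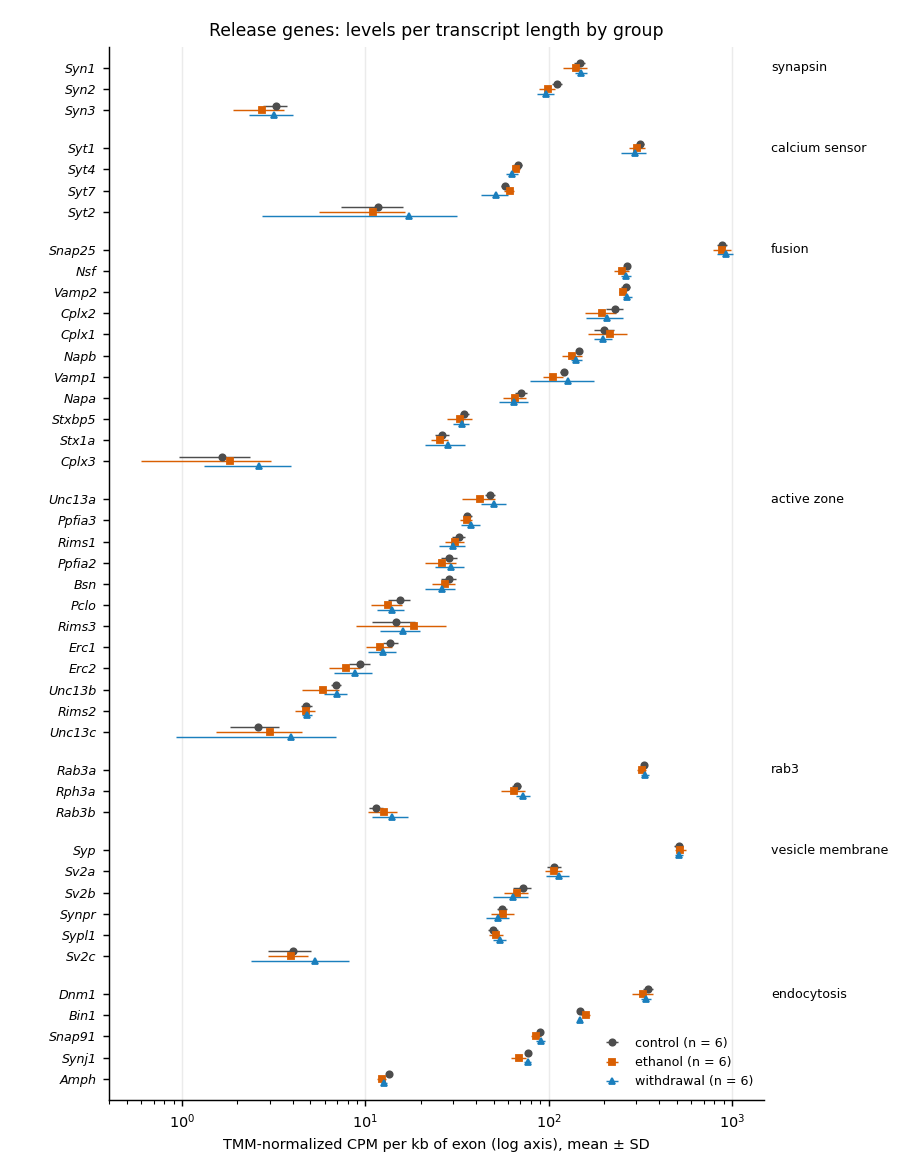
Levels of the 44 release genes in TMM-normalized CPM per kb of exon on a log axis, grouped by role, with control rats as circles, ethanol rats as squares and withdrawal rats as triangles (mean ± SD, n = 6 each). The levels run from 1.65 CPM per kb (Cplx3) to 882 CPM per kb (Snap25) in control rats, and for nearly every gene the 3 groups lie on top of each other.

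Withdrawal was compared with control to ask which release genes differ 24 h after ethanol is removed. Syn2, a synapsin that ties vesicles to each other and to the cytoskeleton, and Syt4, a synaptotagmin also found on dense-core vesicles, were lower. In the fitted model Syn2 fell by 12.2% and Syt4 fell by 9.30%. These were 2 of 44 members (both decreases), where 5.41% of the 17853 genes tested passed the same threshold (limma-voom with 3 surrogate variables, Benjamini-Hochberg q below 0.1), with 2.87% of all genes increased and 2.54% decreased. At an unadjusted p under 0.05 there were 8 members, where 19.8% of all genes stood. For none of the 44 members were the 6 withdrawal rats all on one side of the 6 control rats, which held for 1.06% of all genes.

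Syn2 had 304, 311 and 352 CPM as its lowest, median and highest value in control rats, and 243, 277 and 322 CPM in withdrawal rats. The ethanol rats lay between 246 and 336 CPM with a median of 279 CPM. Both ethanol-fed groups had lower medians than control, and the ranges of all 3 groups overlapped. The fitted log2 fold change of Syn2 in withdrawal against control was -0.19 (SE 0.046, q = 0.0463). In ethanol against control it was -0.11 (SE 0.049, q = 0.353), which did not pass. For withdrawal against ethanol the value was -0.07 (SE 0.052, q = 0.504). Each pair of these comparisons shares a group of rats. The gene (NCBI gene 29179) lies on the plus strand of chromosome 4 from 147037179 to 147195096 in Rnor_6.0, the build of the counts. Without ethanol rat 1 and withdrawal rat 5 the fold change of Syn2 was -0.19 (q = 0.0690) in withdrawal against control. The call was lost without control rat 4, without control rat 6 or without withdrawal rat 6 (q from 0.104 to 0.247), and without surrogate variables (log2 fold change -0.20, q = 0.293).

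Syt4 had 243, 264 and 279 CPM as its lowest, median and highest value in control rats. The same values were 240, 260 and 270 CPM under ethanol, and 215, 246 and 269 CPM under withdrawal. The withdrawal rats reached lower, while their highest value lay within the control range. The log2 fold change of Syt4 was -0.14 (SE 0.041, q = 0.0785) in withdrawal against control, 0.01 (SE 0.044, q = 0.928) in ethanol against control and -0.16 (SE 0.046, q = 0.108) in withdrawal against ethanol. The last of these passed with 5 surrogate variables (q = 0.0728), DESeq2 (q = 0.0445) and more than 1 CPM in at least 6 rats (q = 0.0838). It also passed without any one of control rats 2 and 4, ethanol rat 4 and withdrawal rat 1 (q from 0.0742 to 0.0983), but in no other fit. Syt4 (NCBI gene 64440) lies on the minus strand of chromosome 18 from 24172580 to 24181989 in Rnor_6.0. Without ethanol rat 1 and withdrawal rat 5 the value for withdrawal against control was -0.15 (q = 0.0927). Leaving out any one of control rats 3 to 6 or withdrawal rats 3, 4 and 6 ended the call (q from 0.1001 to 0.250), and without surrogate variables it was -0.10 (q = 0.460).

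The other members had small fitted differences between withdrawal and control. Of all 44, 18 had a higher and 26 a lower fitted level, at a median log2 fold change of -0.02, against 0.00030 over all genes tested. The widest increases were those of Cplx3 (0.22, SE 0.28, q = 0.702) and Unc13c (0.19, SE 0.095, q = 0.269), neither of which passed. Leaving out single rats moved Cplx3 from 0.07 (without withdrawal rat 2) to 0.36 (without withdrawal rat 3) and Unc13c from 0.07 (without control rat 6) to 0.28, and Unc13c passed without ethanol rat 1 (0.22, q = 0.0812). Syn3, the least abundant synapsin, had a log2 fold change of -0.21 (SE 0.10, q = 0.271), which became -0.081 (q = 0.907) without surrogate variables and ran from -0.26 to -0.14 when single rats were left out (the smaller without withdrawal rat 1). Syn1 stood at 0.02 (SE 0.030, q = 0.801). Among the 11 fusion genes 4 were higher and 7 lower, and among the 12 active zone genes 5 were higher and 7 lower, with none passing the test. The active zone balance turned to 7 higher and 5 lower (median 0.02, from -0.02) without ethanol rat 1 and withdrawal rat 5, and was 6 and 6 without surrogate variables. Each of the 3 genes of the RAB3 group (Rab3a, Rab3b and Rph3a, which encodes rabphilin) was higher (0.01 to 0.15). Without ethanol rat 1 and withdrawal rat 5 only 2 of 3 were. Of the 5 endocytosis genes 4 were lower (-0.11 to -0.0021, q of at least 0.129), again without a call. For 39 of the 44 members the 95% interval of the fold change lay within 1.25-fold in either direction (a fold chosen after the values were seen). This held for 57.5% of all genes. The median SE was 0.047 for the members and 0.077 over all genes, and no set of genes of similar level was compared.

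Ethanol was compared with control to ask what the diet itself changes before withdrawal. No release gene passed q below 0.1 with limma-voom, where 0.493% of all genes tested did. The same count of 0 came from the quasi-likelihood test of edgeR, where 0.538% of all genes passed, and DESeq2 called Erc1 alone (-0.15, q = 0.032), where 2.65% did. At an unadjusted p under 0.05 limma-voom gave 7 members, where 12.5% of all genes stood. The members' ranges overlapped in every case, and 1.32% of all genes had separate groups.

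The nearest to a call was Erc1, an active zone scaffold that binds RIM, with a log2 fold change of -0.15 (SE 0.039, q = 0.134). Its levels ran from 104 to 130 CPM (median 112 CPM) in control rats and from 85.03 to 131 CPM (median 97.1 CPM) in ethanol rats, so that the highest of these values came from an ethanol rat, number 5. Without ethanol rat 5 Erc1 passed (-0.19, q = 0.0614), and so did Synj1, the phosphatase synaptojanin that strips clathrin from vesicles (-0.19, q = 0.0753, from -0.14 with q = 0.232 over all rats). The lowest fold changes were those of Erc2 (-0.20, SE 0.086, q = 0.339), the brain relative of Erc1, and Syt2 (-0.20, SE 0.14, q = 0.582). With single rats left out, Syt2 ran from -0.36 to -0.084 and Erc2 from -0.26 to -0.16. The highest were those of Cplx3 (0.39, SE 0.29, q = 0.619) and Synpr (0.15, SE 0.050, q = 0.218). Leaving out single rats moved Cplx3 from 0.24 to 0.67 and Synpr from 0.13 to 0.18, without a call. Without surrogate variables the value for Synpr was 0.0076 (q = 0.986). For Cplx3 the direction turned without surrogate variables (-0.084, q = 0.967).

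By role, 11 of the 12 active zone genes had lower fitted levels in ethanol than in control rats (median -0.07), the exception being Ppfia3 at 0.06 (SE 0.039, q = 0.561). Over all 44 members 31 were lower and 13 higher, and the median log2 fold change was -0.04, against 0.00046 over all genes, and without surrogate variables 35 were lower and 9 higher (median -0.08). None of these 12 active zone genes passed the test. The active zone count was also 11 of 12 (median -0.07) without ethanol rat 1 and withdrawal rat 5, and without surrogate variables it was 10 of 12 (median -0.12). Ethanol rat 1, which stood apart in its thalamus markers, had the lowest level of the 18 rats for 13 members, and ethanol rat 5 the highest for 12. In the same fit each of the 10 thalamus markers was lower in ethanol than in control rats (median -0.32, none at q below 0.1 with limma-voom, 8 at an unadjusted p under 0.05), while their summed levels ran from 405 to 1121 CPM in control and from 349 to 2052 CPM in ethanol rats. Without surrogate variables the direction turned, and each of the 10 was higher in ethanol rats (median 0.21), while without ethanol rat 1 and withdrawal rat 5 each was lower again (median -0.28). The part of these libraries and markers in the lower active zone levels was not tested. For 39 of 44 members the 95% interval lay within 1.25-fold, against 57.9% of all genes, at a median SE of 0.050 and 0.082.

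**Figure D2:**
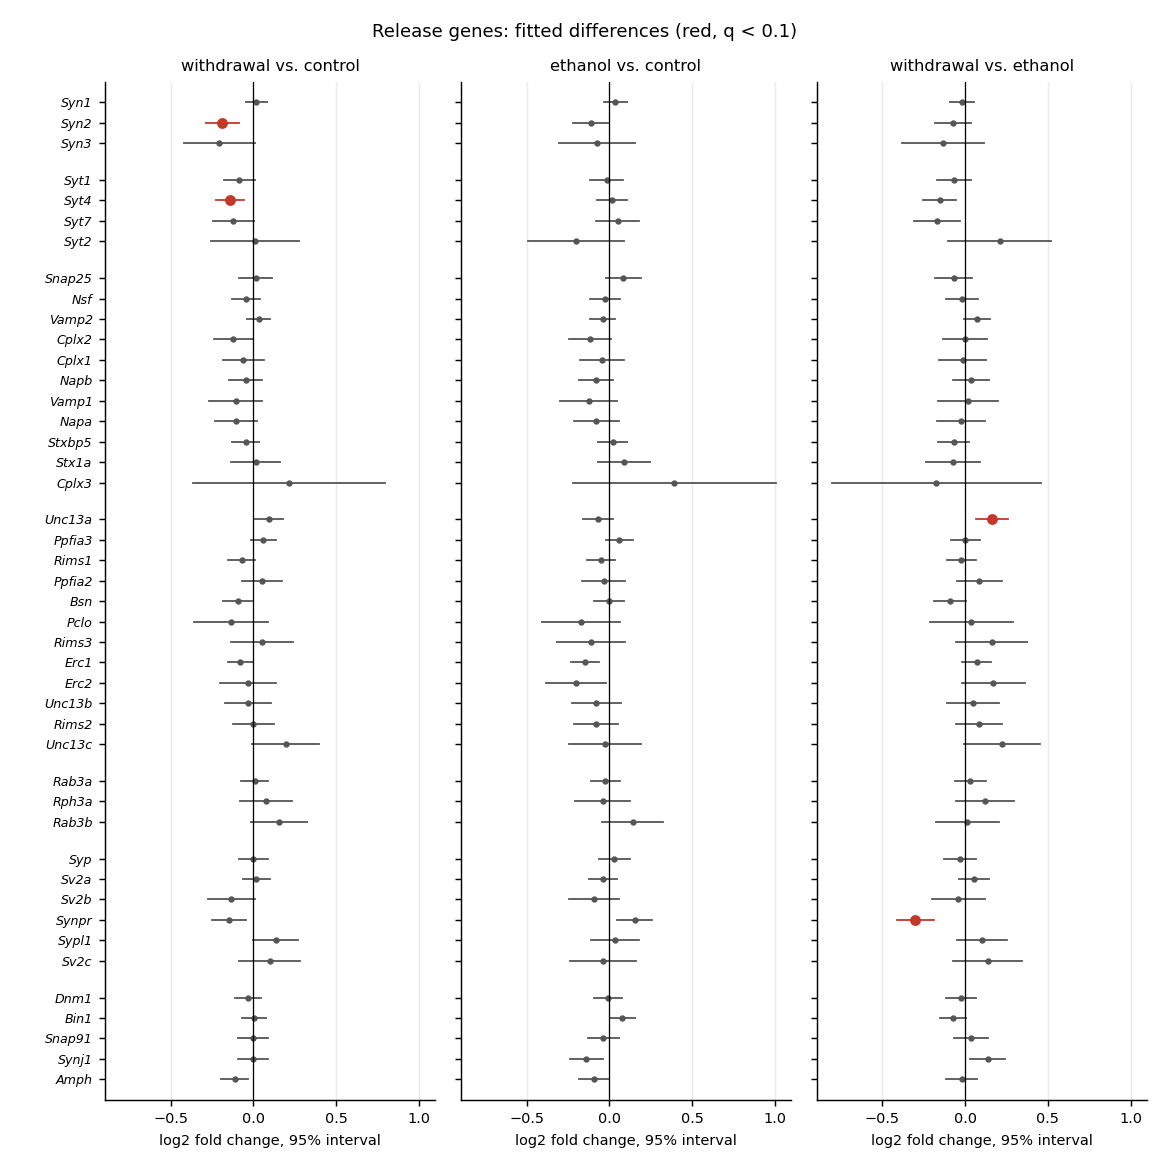
Fitted log2 fold changes of the 44 release genes with 95% intervals in the 3 comparisons, 6 rats against 6 in each, with genes at q below 0.1 in red. Red points are Syn2 (-0.19) and Syt4 (-0.14) in withdrawal against control, and Synpr (-0.30) and Unc13a (0.16) in withdrawal against ethanol, and no gene is red in ethanol against control.

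Withdrawal was compared with ethanol to ask what 24 h without the diet changes in rats that had it. Synpr, synaptoporin, a vesicle membrane protein of the synaptophysin family that is known from mossy fibre terminals, fell by 18.9% in the fitted model, and Unc13a was higher by 11.8%. These were 2 of 44 members, 1 in each direction, where 2.89% of all genes passed, 1.29% as increases and 1.60% as decreases. At an unadjusted p under 0.05 there were 5 members, where 16.9% of all genes stood. Again no member had separate groups, against 1.22% of all genes.

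For Synpr the lowest, median and highest values were 129, 160 and 182 CPM under ethanol, 110, 157 and 168 CPM under withdrawal and 141, 156 and 170 CPM under control diet. The medians were thus close, and the withdrawal rat at 110 CPM was rat 6. The fitted log2 fold change of Synpr in withdrawal against ethanol was -0.30 (SE 0.053, q = 0.0306), but without surrogate variables it was -0.09 (q = 0.653), so that most of the fitted difference arose with the adjustment for those variables. Left out one at a time, withdrawal rat 6, ethanol rat 2 and ethanol rat 3 each ended the call (q from 0.125 to 0.267). Without ethanol rat 1 and withdrawal rat 5 it was -0.29 (q = 0.0357). Between withdrawal and control Synpr stood at -0.15 (SE 0.048, q = 0.106). There it passed with DESeq2 (q = 0.0531) and with more than 1 CPM in at least 6 rats (q = 0.0800). It also passed without any one of control rat 5, ethanol rat 2 and withdrawal rats 2 and 4 (q from 0.0650 to 0.0977), but in no other fit. The gene (NCBI gene 66030) lies on the minus strand of chromosome 15 from 14558613 to 14885790 in Rnor_6.0.

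For Unc13a the lowest, median and highest values were 146, 203 and 272 CPM under ethanol, 173, 252 and 276 CPM under withdrawal and 213, 230 and 255 CPM under control diet. The spread was wide in both ethanol-fed groups, with ethanol rat 1 lowest of all 18 rats and withdrawal rat 5 lowest of its group. The log2 fold change of Unc13a was 0.16 (SE 0.045, q = 0.0912) in withdrawal against ethanol, 0.09 (SE 0.040, q = 0.208) in withdrawal against control and -0.07 (SE 0.043, q = 0.543) in ethanol against control. Without ethanol rat 1 and withdrawal rat 5 the first of these was 0.18 (q = 0.0813). Unc13a was no longer called when any one of 11 rats was left out, which were control rats 1 to 3, ethanol rats 2, 3 and 6 and withdrawal rats 1 to 4 and 6 (q from 0.106 to 0.336), nor without surrogate variables (0.26, q = 0.263). It is NCBI gene 64829, on the minus strand of chromosome 16 from 20056398 to 20103951 in Rnor_6.0.

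**Figure D3:**
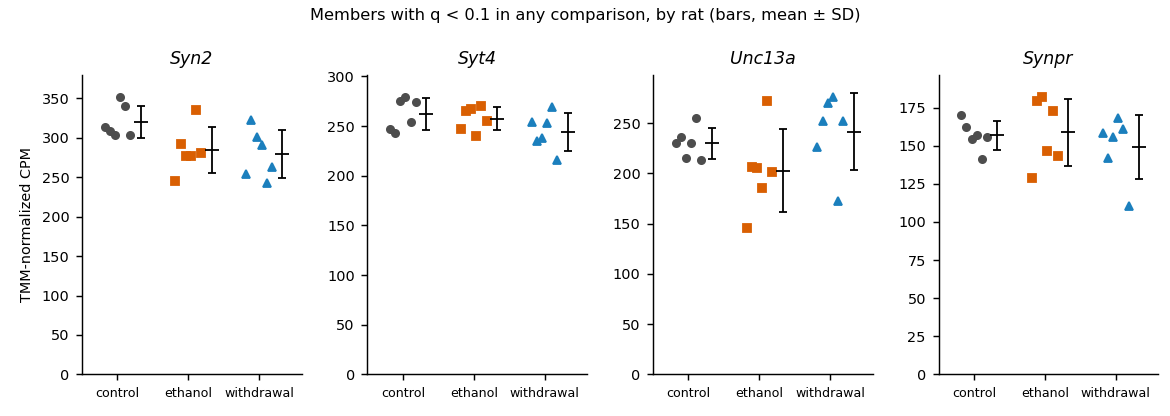
TMM-normalized CPM of Syn2, Syt4, Unc13a and Synpr in each rat (points, 6 per group) with the mean ± SD of each group (bars). The groups overlap for each of the 4 genes, with Syn2 between 304 and 352 CPM in control rats and between 243 and 322 CPM in withdrawal rats, and Synpr at medians of 160 CPM in ethanol and 157 CPM in withdrawal rats.

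The other members again had small differences between withdrawal and ethanol. Fitted levels were higher for 22 and lower for 22 of the 44, their median log2 fold change was -0.00089, and this even balance was not kept without surrogate variables, where 31 were higher and 13 lower (median 0.07), with 9 of 11 fusion genes higher in place of 3. Without ethanol rat 1 and withdrawal rat 5 there were 24 higher and 20 lower. In the fit on all rats 10 of the 12 active zone genes were higher (median 0.08), the ones lower being Bsn (-0.09, SE 0.046, q = 0.318) and Rims1 (-0.02, SE 0.042, q = 0.826). Because these rats also enter the comparison of ethanol with control, both counts of active zone genes share the ethanol group. Of the 10 thalamus markers 9 were likewise higher in withdrawal than in ethanol rats (median 0.20, none called with limma-voom, 2 at an unadjusted p under 0.05), and without surrogate variables each of the 10 was lower (median -0.45), and their part was not tested. The count of higher active zone genes was also 10 of 12 (median 0.08) without ethanol rat 1 and withdrawal rat 5, and 9 of 12 (median 0.07) without surrogate variables. Syt7 had a fold change of -0.17 (SE 0.066, q = 0.198) against ethanol and of -0.12 (SE 0.059, q = 0.263) against control. Without withdrawal rat 4 Syt7 passed in both, at -0.19 (q = 0.0723) against ethanol and -0.16 (q = 0.0734) against control. The remaining large values were increases of Unc13c (0.22, SE 0.11, q = 0.308) and Syt2 (0.21, SE 0.15, q = 0.497) and a decrease of Cplx3 (-0.17, SE 0.30, q = 0.811), none of which passed over all rats, and for Cplx3 the direction turned without surrogate variables (0.61, q = 0.502). Without ethanol rat 1 Unc13c passed (0.27, q = 0.0907), and Syt2 ran from 0.056 (without ethanol rat 5) to 0.39 (without ethanol rat 2) when single rats were left out. In the same fits Cplx3 ran from -0.40 to -0.020. Each of the 3 synapsins was lower (-0.13 to -0.02) without passing, whereas 2 of the 3 were higher without surrogate variables (median 0.11). The 95% interval lay within 1.25-fold for 36 of 44 members, against 54.1% of all genes, at a median SE of 0.053 and 0.086.

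The mean log2 CPM over the 44 members was 7.55 ± 0.033 (SD, n = 6) in control, 7.48 ± 0.078 in ethanol and 7.56 ± 0.078 in withdrawal rats. Ethanol lay 0.08 below control and 0.08 below withdrawal, and withdrawal 0.0074 above control. The gap of ethanol to control exceeded the SD of the control rats and was near that of the ethanol rats. The lowest of the withdrawal rats was rat 6 at 7.41, and the other withdrawal rats ran from 7.56 to 7.64.

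**Figure D4:**
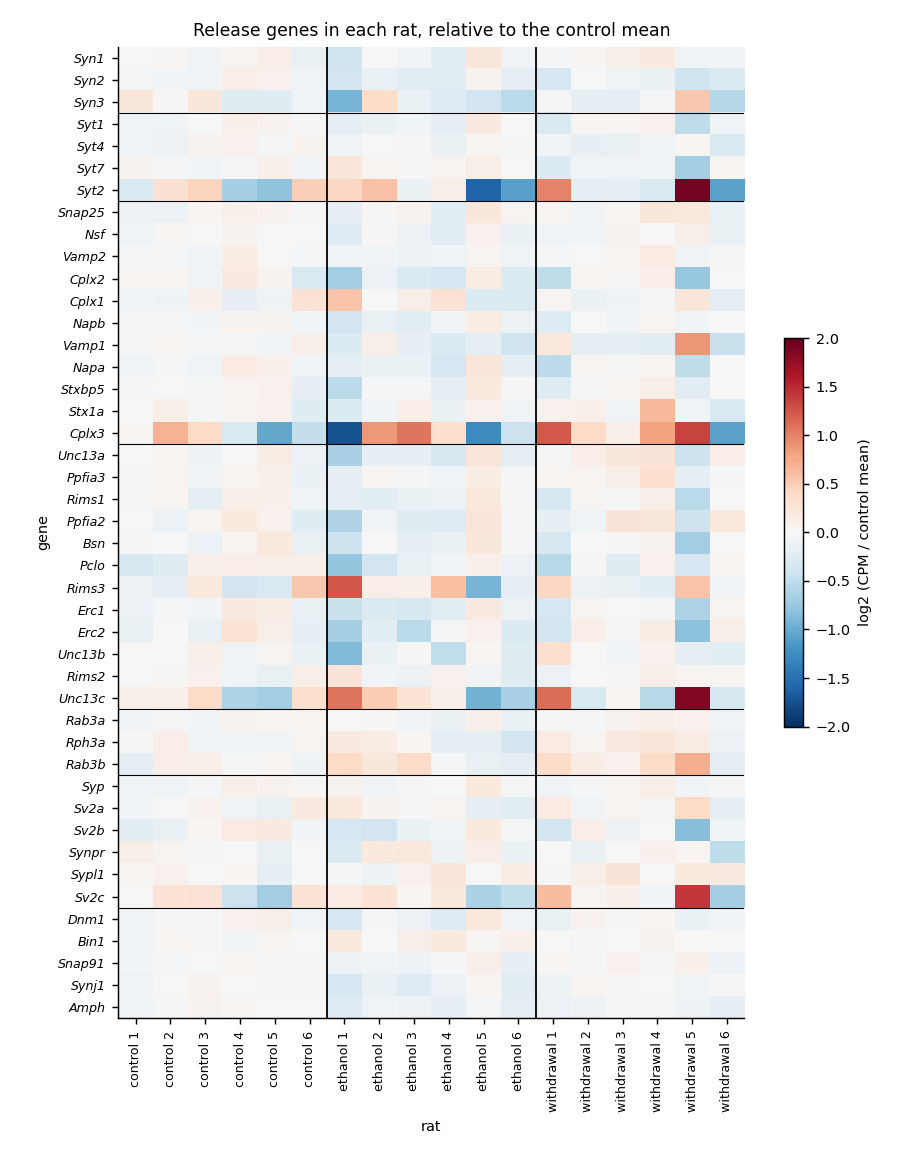
CPM of the 44 release genes (rows, grouped by role) in each of the 18 rats (columns), as log2 of the ratio to the control mean, with red above and blue below and the colour scale ending at 2 in either direction. Most genes stay near the control mean, and the strongest colours fall on Syt2, Cplx3, Unc13c, Rims3 and Sv2c in single rats, above all withdrawal rat 5 and ethanol rat 1.

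The members varied from rat to rat to very different degrees. The pooled SD within groups of log2 CPM was 0.060 for Bin1, a dynamin-binding protein shared by many cell types, and 0.90 for Cplx3, with a median of 0.18 over the 44 members and 0.18 over all genes tested. Withdrawal rat 5 was the highest of the 18 rats for 10 members and the lowest for another 10. Syt2 stood there at 112 CPM, against 9.86 to 59.2 CPM in the other rats. Unc13c had 92.8 CPM (others 13.3 to 56.3 CPM), and Vamp1, the synaptobrevin of many fast-firing neurons, had 587 CPM (others 234 to 369 CPM). Sv2c had 98.2 CPM, against 22.8 to 56.3 CPM elsewhere.

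Other members were low in this rat, among them relatives of those that were high. Syt7, the slow calcium sensor of delayed release, had 391.6 CPM in withdrawal rat 5, against 517 to 742 CPM in the other rats. Sv2b, the vesicle protein of many excitatory terminals, had 235 CPM (others 326 to 485 CPM), and Bsn, the large scaffold bassoon, had 282 CPM (others 344 to 530 CPM). Cplx2, the complexin of many excitatory neurons, had 298 CPM, against 311 to 570 CPM. Withdrawal rat 1, next lowest in hippocampal principal neuron markers at 450 CPM, also had 59.2 CPM of Syt2, 369 CPM of Vamp1 and 517 CPM of Syt7, the value next to that of rat 5 in each case. In ethanol rat 1, with the next lowest marker sum (513 CPM), Cplx2 and Bsn were next lowest at 311 and 344 CPM and Unc13c stood at 54.3 CPM, whereas Syt7 was the highest of all rats at 742 CPM and Vamp1 had 263 CPM. The part of tissue makeup in these levels was not tested. With 2 rats fewer (ethanol rat 1 and withdrawal rat 5), Vamp1 was called lower in withdrawal than in control (-0.19, q = 0.0679), while over all rats it stood at -0.11 (SE 0.077, q = 0.457).

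**Figure D5:**
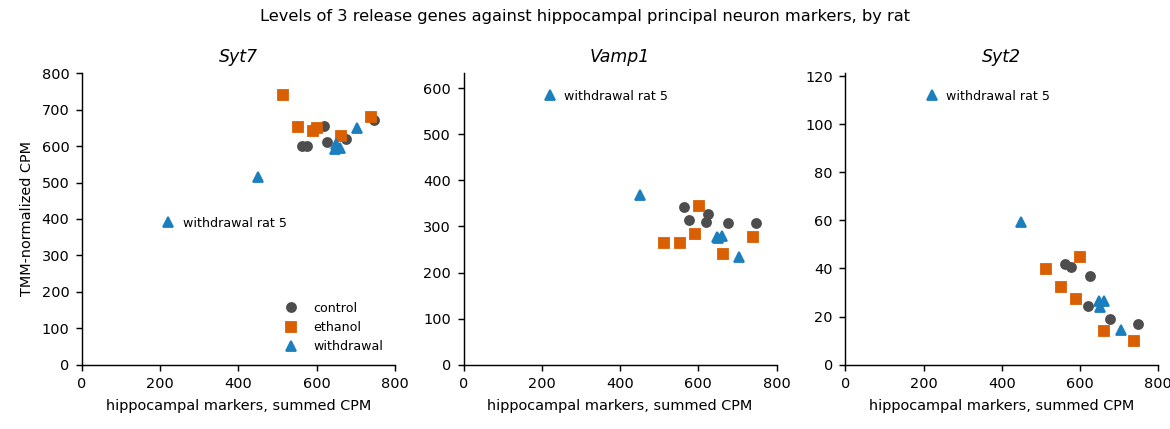
CPM of Syt7, Vamp1 and Syt2 in each of the 18 rats against the summed CPM of 10 hippocampal principal neuron markers, with control rats as circles, ethanol rats as squares and withdrawal rats as triangles. Withdrawal rat 5 lies at a marker sum of 220 CPM with 391.6 CPM of Syt7, 587 CPM of Vamp1 and 112 CPM of Syt2, outside the range of the other 17 rats on both axes.

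Further genes of the same pathway were read from the same fit. Of 40 other release genes, 1 passed in withdrawal against control, Syt9, another calcium sensor (-0.61, SE 0.18, q = 0.0845), with 4.61 to 20.2 CPM in control and 3.02 to 11.2 CPM in withdrawal rats. That is 1 of 40 where 2.54% of all genes fell, and 5 of 40 stood at an unadjusted p under 0.05, where 19.8% of all genes did. Syt9 did not pass without ethanol rat 1 and withdrawal rat 5 (-0.31, q = 0.170), nor did any other of the 40 with limma-voom, 4 of them having an unadjusted p under 0.05, where 19.1% of all genes did. In withdrawal against ethanol 2 of 40 passed, both as increases, where 1.29% of all genes rose, and 12 of 40 stood at an unadjusted p under 0.05, where 16.9% of all genes did. Cadps, a priming factor of dense-core vesicles, was among those that rose (0.20, SE 0.054, q = 0.0873), with 148 to 181 CPM under ethanol and 177 to 211 CPM under withdrawal. With those 2 rats left out 3 of the 40 passed, 2 as increases and 1 as a decrease, where 1.77% of all genes rose and 2.16% fell, and Cadps was not among them (0.19, q = 0.114). None of the 40 passed with limma-voom in ethanol against control, where 7 stood at an unadjusted p under 0.05, against 12.5% of all genes, and without the 2 rats Syt13 fell (-0.33, q = 0.0715), as 0.39% of all genes did.

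Genes of the clathrin pathway were read in the same way. Of 25 other endocytosis genes, 2 rose in withdrawal against control, where 2.87% of all genes did, the clathrin adaptor Picalm (0.16, SE 0.046, q = 0.0821) and the clathrin light chain Cltb (0.15, SE 0.044, q = 0.0842). At an unadjusted p under 0.05 there were 9 of 25, against 19.8% of all genes. With ethanol rat 1 and withdrawal rat 5 left out, Picalm (0.17, q = 0.0572), Pacsin1 and Synj2 rose, as 3.26% of all genes did, and Cltb did not pass (0.13, q = 0.132). Without surrogate variables none of the 25 passed with limma-voom, and 5 stood at an unadjusted p under 0.05, where 12.1% of all genes did. In withdrawal against ethanol 4 of 25 rose, where 1.29% of all genes did, none fell with limma-voom, and 8 of 25 stood at an unadjusted p under 0.05, against 16.9% of all genes. Cltc, the clathrin heavy chain, lay at 778 to 858 CPM in the ethanol group and at 907 to 1027 CPM after withdrawal, so that these groups did not overlap, with a log2 fold change of 0.24 (SE 0.046, q = 0.0306). Its control rats ran from 814 to 966 CPM, across the gap between both ethanol-fed groups. Synj2 (0.27, SE 0.060, q = 0.0521), Ap2b1, a subunit of the adaptor that links clathrin to cargo (0.25, SE 0.070, q = 0.0901), and Pacsin1, a dynamin-binding protein of terminals (0.25, SE 0.069, q = 0.0901), rose as well. These 4 also passed without ethanol rat 1 and withdrawal rat 5 (q from 0.0441 to 0.0914), where 1.77% of all genes rose, while without surrogate variables Cltc (0.24, q = 0.0321) and Pacsin1 (0.35, q = 0.0527) passed, where 1.78% did. In ethanol against control limma-voom called none of the 25, with 8 at an unadjusted p under 0.05, against 12.5% of all genes. Over the 25 the median log2 fold change was 0.06 in withdrawal against control and 0.02 in withdrawal against ethanol.

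Markers of other cells moved in part beside these genes. In withdrawal against control the astrocyte marker Gfap (0.54, SE 0.15, q = 0.0767) and the endothelial genes Vwf, Pecam1 and Flt1 (0.28 to 0.34) rose, whereas the astrocyte genes Aldh1l1 (-0.41) and Gja1 (-0.13) and the dentate granule cell marker Prox1 (-0.26, SE 0.080, q = 0.0966) fell. Gfap also rose in withdrawal against ethanol (0.74, SE 0.17, q = 0.0552), at 848 to 996 CPM in control, 575 to 1146 CPM in ethanol and 639 to 1530 CPM in withdrawal rats. When ethanol rat 1 and withdrawal rat 5 were left out, these genes passed again in withdrawal against control except Prox1 (-0.20, q = 0.155), and Gjb6, C1ql2 (both lower) and Vip (higher) passed too. Gja1 (-0.18) and Vip (0.40) then passed in ethanol against control, and Gfap (0.85), Gjb6 (-0.49) and the thalamus marker Ntng1 (0.36) in withdrawal against ethanol. Without surrogate variables none of the 65 markers tested passed in withdrawal against control with limma-voom, and 10 stood at an unadjusted p under 0.05, where 12.1% of all genes did. In that same fit Gfap (0.73, q = 0.0773), Gad2 (0.62) and Bok (-0.72) passed in withdrawal against ethanol. Of the 8 general neuron markers none passed with limma-voom in any comparison, and 1 had an unadjusted p under 0.05 in each. Of the 8 hippocampal principal neuron markers tested, 7 had lower fitted levels in withdrawal than in control rats and 8 of 8 lower levels than in ethanol rats (medians -0.17 and -0.20), which became 5 of 8 and 6 of 8 (medians -0.13 and -0.14) with the 2 rats left out. The summed levels of the list without that fit were 563 to 748 CPM in the control group, 513 to 739 CPM under ethanol and 220 to 703 CPM under withdrawal, with medians of 623, 596 and 649 CPM. The 7 interneuron markers tested were all higher in withdrawal than in control rats (median 0.18, none called with limma-voom, 3 at an unadjusted p under 0.05), and Gad2 rose against ethanol (0.35, SE 0.083, q = 0.0552; 0.32, q = 0.0752 without those 2 rats). Each of the 8 choroid plexus markers was lower in withdrawal than in ethanol rats (median -0.44, none called with limma-voom, 6 at an unadjusted p under 0.05), as they were without those 2 rats (median -0.30). The part of cell makeup in the lower levels of Syn2, Syt4 and Synpr was not tested.

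To show what lies before the starts of called members, the 250 bases upstream of the annotated start are given for 3 of them in the GRCr8 assembly (RefSeq), a later build than that of the counts. They are chr4:149858669-149858918 on the plus strand for Syn2, chr16:18415787-18416036 on the minus strand for Unc13a and chr15:14182358-14182607 on the minus strand for Synpr, written 5′ to 3′ along the gene. Capitals mark the GC box GGGCGG and the letters TGACG, which are only a part of a full cAMP response element, each on either strand.
Syn2: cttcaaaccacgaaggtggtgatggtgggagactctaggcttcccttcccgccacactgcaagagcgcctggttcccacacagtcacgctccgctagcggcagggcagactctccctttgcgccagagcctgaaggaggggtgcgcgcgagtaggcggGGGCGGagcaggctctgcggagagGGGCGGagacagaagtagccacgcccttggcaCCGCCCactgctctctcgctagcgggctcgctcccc
Unc13a: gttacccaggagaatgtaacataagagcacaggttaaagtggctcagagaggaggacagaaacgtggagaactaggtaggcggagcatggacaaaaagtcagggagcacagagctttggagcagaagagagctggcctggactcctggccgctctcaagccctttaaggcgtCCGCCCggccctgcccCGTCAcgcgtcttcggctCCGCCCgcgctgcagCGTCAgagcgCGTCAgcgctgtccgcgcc
Synpr: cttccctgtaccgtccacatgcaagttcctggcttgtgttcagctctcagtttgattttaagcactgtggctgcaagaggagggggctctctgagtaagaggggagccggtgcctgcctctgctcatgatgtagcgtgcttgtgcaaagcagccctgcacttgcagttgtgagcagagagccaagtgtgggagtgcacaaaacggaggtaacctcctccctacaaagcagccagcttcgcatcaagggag
The Syn2 window holds 3 GC boxes and no TGACG, the Unc13a window 2 GC boxes and 3 copies of TGACG, and the Synpr window holds neither. Among all 33469 windows of this length 30.5% held a GC box and 18.2% held TGACG, and of the 37 members with a window 24 (64.9%) and 12 (32.4%) did. No member window held the TATA box letters TATAAA, which 12.9% of all windows did. GC content was 66.8% for Syn2, 61.2% for Unc13a and 55.2% for Synpr, against a median of 51.2% over all windows. GC boxes were thus present before a gene that fell in withdrawal against control (Syn2) and before one that rose against ethanol (Unc13a), and the marked letters did not overlap each other. A match of letters is a description, not a binding site.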

How the data were processed

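Poly(A) RNA of 18 rats was sequenced as stranded paired-end libraries. The authors used STAR 2.5.2a with Rnor_6.0 (NCBI annotation 106) and featureCounts 1.5.0 on exons by strand, and the deposited values are unnormalized counts, one table per rat. Groups and replicate numbers were taken from the labels. Gene IDs were named from a RefSeq table (29322 of 38445 matched). The 17853 genes above 0.5 CPM in 1 rat or more were normalized by TMM (edgeR 4.0.16) and tested with limma-voom (limma 3.58.1, R 4.3.3), with all 3 groups and 3 surrogate variables (sva 3.50.0, log2 CPM with prior count 2) in one model. P-values are two-sided, adjusted by Benjamini-Hochberg over all genes tested, and called at q < 0.1. Surrogate variables are sources of variation estimated from the data. Scripts were tested on simulated data. Of 45 pairs of same-group rats none matched within sampling noise (chi-square per degree of freedom at least 5.44). The members, lists and rules were chosen with earlier results of these data known. Members were named in detail if called, among the 2 largest increases or decreases of a comparison, or highest or lowest in control level per kb within their role. Erc1, Synj1, Ppfia3, Bsn, Rims1, Vamp1, Syt7, Sv2b, Cplx2 and Bin1 were added after their values were seen. Counting error is small at this depth, and rats set the precision. Alternatives were other numbers of surrogate variables, edgeR, DESeq2 1.42.0, other scalings, filters and thresholds, a replicate block, only rats of the shared index set, leaving out each rat and, chosen after seeing the data, leaving out ethanol rat 1 and withdrawal rat 5. One result for a gene outside the 44 members is not reported here.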

Additional observations from a re-analysis of the deposited data

Results flagged for a closer look

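Groups of 6 rats were searched for a lone highest or lowest value, for the members given in detail and for their mean log2 CPM, 57 groups in all, of which chance picks out about 1 in 20. The search picked out 1 value. The mean log2 CPM over the 44 release genes was 7.41 in withdrawal rat 6, the lowest of its group, and the next withdrawal rat stood at 7.56, a gap of 0.656 of the group's whole range against a limit of 0.625. In the same rat the 8 choroid plexus markers summed to 5590 CPM, the highest of all rats, and 5 of the 44 members had their lowest level. Without this rat the mean log2 CPM of withdrawal minus control was 0.04 in place of 0.0074.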

How the results depend on the processing

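The number of release genes called in withdrawal against control was 2. It became 1 at q < 0.05 (2.15% of all genes passed), 1 without a filter on low counts (1.67%), 4 with more than 1 CPM in at least 6 rats (Syn2, Syt4, Synpr and Amph, 6.74%), 0 with 5 surrogate variables (1.48%) and 0 without any (0.23%). In these last fits limma-voom gave 7 and 2 members at an unadjusted p under 0.05, where 13.1% and 12.1% of all genes stood. DESeq2 gave 3 in withdrawal against control (9.1%), 1 in place of 0 in ethanol against control (2.65%) and 3 in withdrawal against ethanol (6.59%). In the last comparison 5 surrogate variables also gave 3 (4.96%). In withdrawal against ethanol the number was 2, and it became 1 at q < 0.05 (0.667%), 1 with 2 surrogate variables (1.54%), 1 without the filter (0.655%), 0 without surrogate variables (3.48%) and 0 with only the rats of the shared index set (0.00564%), these fits having 5 and 3 members at an unadjusted p under 0.05 (18.6% and 7.35%). Leaving out each rat gave 0 to 3, 0 to 2 and 0 to 4 calls in the 3 comparisons, while the share of all genes ran from 0.129% to 10.9%, from 0% to 1.44% and from 0% to 10.4%. Without withdrawal rat 6 there was no call in any comparison (0.129%, 0.157% and 0% of all genes; limma-voom, 3, 6 and 5 members at an unadjusted p under 0.05, against 14%, 11.9% and 10.9%). The highest counts in the latter 2 comparisons came without ethanol rat 5 (1.44% and 10.4%), where Erc1 and Synj1 were called. Same-numbered rats were different animals, and their deviations from the group means did not move together (r from -0.32 to 0.38 in 18 pairs). With the replicate block the counts were 1 (Syn2), 0 and 1 (Synpr), where 6.06%, 0.185% and 0.527% of all genes passed. The fold change of Cplx3 turned in ethanol against control without surrogate variables (-0.084), and in withdrawal against ethanol without surrogate variables (0.61), with 5 surrogate variables (0.13) and in the shared index set (0.61). The cause was not tested. The mean log2 CPM of withdrawal minus control ran from -0.0078 to 0.04 when single rats were left out, and was -0.0032 without ethanol rat 1 and withdrawal rat 5. Fits of single genes gave 397 values, for the 4 calls and the 2 largest increases and decreases of each comparison. Of these, 353 kept direction and side of the threshold and 38 lost the call. Another 2 gained it (Unc13c in both withdrawal comparisons without ethanol rat 1) and 4 turned. All 38 losses fell on the 4 calls, and Unc13a lost its call in 11 of 18 fits without 1 rat. Calls gained by Erc1, Synj1, Syt7, Vamp1, Amph, Synpr (against control) and Syt4 (against ethanol) were not among these values.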
